A study of Mus musculus with 3 samples.

Results

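Mouse embryonic stem cells exposed to tubercidin for 6 h were set against the same kind of cells exposed for 3 h, to see which transcripts changed between the 2 times and how each change continued or turned back what was present at 3 h. The comparison holds 2926 cells at 6 h and 2365 cells at 3 h, 5291 of the 7322 cells called in the study. A barcode counted as a cell with at least 2107 (6 h) or 2961 (3 h) transcript molecules, counted as unique molecular identifiers (UMIs), 500 or more genes, and mitochondrial UMIs no higher than 20%. The cells were E14 mESCs, an established embryonic stem cell line of 129/Ola background, grown on gelatin in serum medium with leukemia inhibitory factor. Tubercidin was added at 10 uM 24 hours after seeding, and the third library of the study, with 2031 cells, received DMSO, the solvent, for 6 h. Each condition is 1 library, so no difference between times was tested and no p-value is given. There was no DMSO library at 3 h, so hours of tubercidin and hours in culture cannot be told apart.

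Tubercidin is an analogue of adenosine that adenosine kinase phosphorylates and that can enter nucleotide pools and RNA. Short-lived transcripts, such as those of immediate-early genes, follow changes in transcription quickly, while transcripts of ribosomal proteins and metabolic enzymes last long. A gene that spans much of a chromosome takes longer to transcribe than a compact one. The transcription factor p53 is held low by the ubiquitin ligase Mdm2, itself encoded by a p53 target gene, and drives genes of cell cycle arrest, repair and cell death. Embryonic stem cells depend on transcription factors such as Pou5f1, Sox2 and Nanog, with Klf2, Klf4 and Esrrb in the naive state.

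The cells of the 3 h and 6 h libraries held 29892000 and 24681924 UMIs, against 104892739 in the control. The median UMIs of a cell were 11877 at 3 h, 8004.5 at 6 h and 48452 in the control, and the median genes 3293, 2799.5 and 7083. UMIs outside cells made up 15.5% of the 3 h library, 15.9% of the 6 h library and 9.31% of the control. Any pair of libraries shared 1 cell barcode. All 10 embryonic stem cell markers were present at both times, summing to 5662 CPM (counts scaled to 1000000 per library) at 3 h, 4515 CPM at 6 h and 5186 CPM in the control. These sums were led by Dppa5a, at 3555 CPM at 3 h, 2263 CPM at 6 h and 2549 CPM in the control. The other markers went both ways between 3 h and 6 h. Markers of primitive endoderm summed to 47.9, 66.5 and 51.5 CPM at 3 h, 6 h and in the control, with Sox17 at 0 at 6 h. Trophoblast markers gave 46.4, 46.8 and 40.1 CPM with Hand1 at 0 at 6 h, and fibroblast markers gave 124, 94.6 and 109 CPM, led by Vim, with Col3a1 and Postn at 0 at 3 h and Col1a2 and Lum at 0 at 6 h. Epiblast and mesoderm markers gave 27.8, 26.7 and 30.1 CPM with none at 0. Markers of 2-cell-like cells were at 0 CPM at 3 h and 1.17 CPM at 6 h, with 3 of 8 still at 0. The part of these markers in the differences was not tested.

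Between 3 h and 6 h most genes stayed within 1.5-fold of the median gene, and those outside it were 346 higher and 283 lower. Of 32285 genes listed, 7666 averaged 10 CPM or more in the 3 h and 6 h libraries and were compared. A gene under 10 CPM at either time passed only through the other time, where it was higher. Values below are log2 ratios of CPM + 1 from which the ratio of the median gene was subtracted, so 0 is the median gene. On this relative scale 346 genes (4.51% of those compared) were at least 1.5-fold higher at 6 h and 283 (3.69%) at least 1.5-fold lower. At least 2-fold higher were 82 genes (1.07%), and at least 2-fold lower were 26 (0.339%). For each of the 346 and 283 genes, the exact 95% interval for counting error left out the median gene, as it did for 68.8% of all genes compared, so counting error is small beside a 1.5-fold difference, and variation between cultures was not measured. Just inside the rule stood Numb at 0.59 and Tubb5 at -0.59. Just outside it stood Prelid1 at 0.58 and Mat2b at -0.58.

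The scale decides how many genes count as higher. The genes past 1.5-fold were higher at 6 h in 55.0% of cases relative to the median gene, in 85.6% by CPM alone, in 34.95% with median-of-ratios factors, in 35.7% with TMM factors and in 2.94% by UMIs per cell. These scalings moved the median gene to 0.14, -0.08, -0.08 and -0.44. Every directional statement below is relative to the median gene. A summed count does not tell a change in all cells from a change in some of them, nor fewer cells from less RNA per cell.

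Setting the step from control to 3 h beside the step from 3 h to 6 h gave 6 patterns. Late risers were within 1.5-fold of the control at 3 h and at least 1.5-fold higher at 6 h than at 3 h, and numbered 230 (3.00%). Recovering genes, at least 1.5-fold lower at 3 h and at least 1.5-fold higher in the next step, numbered 63 (0.822%). Genes that kept falling, at least 1.5-fold lower in both steps, numbered 19 (0.248%). Genes that kept rising, the mirror of these, numbered 53 (0.691%). Late fallers numbered 205 (2.67%), and transient risers, higher at 3 h and lower again at 6 h, numbered 59 (0.770%). Both steps contain the 3 h library, so an error in that library would appear in them with opposite signs. The counts are therefore descriptions.

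Few genes in any class passed 1.5-fold in the second step. Of 6181 genes within 1.5-fold of control at 3 h, 5746 were within 1.5-fold of their 3 h level at 6 h. Of 694 genes at least 1.5-fold lower at 3 h, 612 were within 1.5-fold of their 3 h level at 6 h, and the median of the group was -0.74 at 3 h and -0.65 at 6 h, against control. Of 791 genes at least 1.5-fold higher at 3 h, 679 were within 1.5-fold at 6 h, with medians of 0.78 and 0.64. In the second step 9.08% of the lowered genes were at least 1.5-fold higher, beside 3.72% of the genes within 1.5-fold, and 7.46% of the raised genes were at least 1.5-fold lower, beside 3.32%. The shares rest on steps that both contain the 3 h library.

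**Figure D1:**
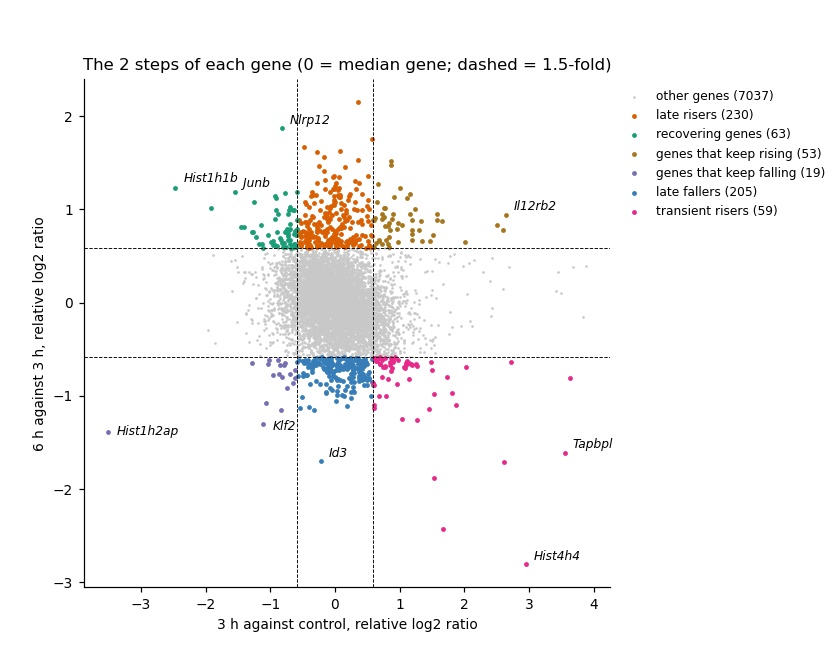
Each point is 1 of the 7666 genes compared, placed by its relative log2 ratio of 3 h against control (x axis) and of 6 h against 3 h (y axis), with 0 at the median gene and dashed lines at 1.5-fold. The 230 late risers fill the upper middle and the 205 late fallers the lower middle, while the 63 recovering genes and 59 transient risers lie in opposite corners.

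The late risers with the highest ratios have varied known roles. Klhl26, a member of the kelch-like family, was at 25.4 CPM with DMSO, 22.4 CPM at 3 h and 79.1 CPM at 6 h, a relative log2 ratio of 1.63 between the 2 times. Ptpn14, a protein tyrosine phosphatase, stood at 20.001, 13.5 and 48.0 CPM in the same order, a ratio of 1.61. Camk1d, a calcium- and calmodulin-dependent kinase, was by far the most abundant of the leading genes.

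It was at 287, 214 and 701 CPM, and its ratio of 1.56 had a counting interval of 1.52 to 1.60 from 6405 UMIs at 3 h and 17291 at 6 h. In CPM, Klhl26, Ptpn14 and Camk1d each had the highest level at 6 h and the lowest at 3 h. Relative to the median gene, Klhl26 stood at 0.08 against control at 3 h. Rpgrip1, a protein of the photoreceptor cilium, completed the leading genes at 7.94, 8.66 and 29.9 CPM with a ratio of 1.53. Trf, which encodes transferrin, had a ratio of 1.67 from 4.22 CPM at 3 h and 17.4 CPM at 6 h, and 39.6% of the last 500 bases of its transcript lie in stretches of 31 bases found in another gene, so its reads can be split.

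Further down the 12 highest ratios stood Dagla, a diacylglycerol lipase, at 1.47, Vcan, the extracellular matrix proteoglycan versican, at 1.41, and Susd6, a membrane protein, at 1.35. Mc1r, the melanocortin receptor, had 1.46 from 5.62 CPM at 3 h and 19.1 CPM at 6 h. It begins 3272 bases past the end of Tcf25 on the same strand, and whether its reads come from its own transcript was not tested. Aff1, a scaffold of the elongation complexes that release paused RNA polymerase, had 1.05, from 49.3 to 114 CPM. Of the 230 late risers, 154 were at least 1.5-fold above control at 6 h and 76 were within 1.5-fold of it.

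Targets of p53 were among the higher genes. In the list of known p53 targets, 18 of 22 compared genes lay above the median gene at 6 h against 3 h, and the list median was 0.40, or -0.041 by UMIs per cell. By the 1.5-fold rule 6 were higher and none lower, where 4.51% and 3.69% of all genes were. Mdm2, the ligase that holds p53 low, was at 85.3 CPM with DMSO, 88.5 CPM at 3 h and 243 CPM at 6 h, a ratio of 1.30 with a counting interval of 1.24 to 1.37. Mdm2 was thus close to its control CPM at 3 h and highest in the 6 h library. Apaf1, the core of the caspase-activating apoptosome, was at 19.1, 23.0 and 67.1 CPM with a ratio of 1.36.

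Cdkn1a, the cyclin-dependent kinase inhibitor p21, was at 15.4 CPM with DMSO, 9.13 CPM at 3 h and 22.2 CPM at 6 h, with a ratio of 1.05 and an interval of 0.92 to 1.35. Intervals here and below are for the ratio without the pseudocount, so they sit slightly outward of the value for low genes. Phlda3, an inhibitor of Akt signalling, had 1.00, from 46.9 to 105 CPM, and Polk, a translesion DNA polymerase, had 0.92, from 41.2 to 87.3 CPM. The last of the 6 was Trp53inp1, at 0.59, from 29.8 to 50.3 CPM.

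Other members moved less. Ccng1, cyclin G, was at 80.4, 80.1 and 119 CPM, a ratio of 0.42. Bax and Bbc3, which promote cell death at mitochondria, had 0.00 and -0.05, and Aen, an exonuclease, was the lowest member at -0.15. Against the control, 6 of the 22 were at least 1.5-fold higher and 1 lower at 3 h, where 10.3% and 9.05% of all genes were. At 6 h 12 were higher and none lower, beside 11% and 11.2% of all genes. The medians against control were 0.36 at 3 h and 0.63 at 6 h. Both use the same control library.

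The promoters of Mdm2 and Cdkn1a are shown because both genes were called and both windows hold the p53 half-site, the element that p53 binds in pairs. Each window, from RefSeq on GRCm38.p6, runs 5′ to 3′ along the gene from 250 bases before to 50 bases after its annotated start, with half-sites in capitals. The Mdm2 window lies at chr10:117710709-117711008 on the minus strand with a half-site that begins 186 bases before the start, and the Cdkn1a window lies at chr17:29090729-29091028 on the plus strand with half-sites that begin 73 and 51 bases before it.
Mdm2: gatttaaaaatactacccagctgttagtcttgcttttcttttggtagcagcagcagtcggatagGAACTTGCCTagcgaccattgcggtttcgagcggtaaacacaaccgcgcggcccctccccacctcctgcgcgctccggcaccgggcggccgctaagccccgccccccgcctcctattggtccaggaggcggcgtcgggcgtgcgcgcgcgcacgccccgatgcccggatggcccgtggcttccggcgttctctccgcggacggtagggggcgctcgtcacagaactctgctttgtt
Cdkn1a: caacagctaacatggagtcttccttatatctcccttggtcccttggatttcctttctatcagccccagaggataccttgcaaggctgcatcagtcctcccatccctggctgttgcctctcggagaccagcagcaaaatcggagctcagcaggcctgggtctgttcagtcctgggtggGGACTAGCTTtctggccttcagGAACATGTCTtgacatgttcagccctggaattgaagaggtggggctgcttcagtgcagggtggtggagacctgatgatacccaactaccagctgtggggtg
A half-site on either strand occurred in 7 of the 16 promoters matched for the list and in 8.34% of the 27025 promoters of the table. Windows were at hand for only 16 of the 22 genes, under 80%, so the share is void as a check of the list, and a match of letters is not a binding site. Apaf1, Phlda3 and Polk have no half-site in this window.

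**Figure D2:**
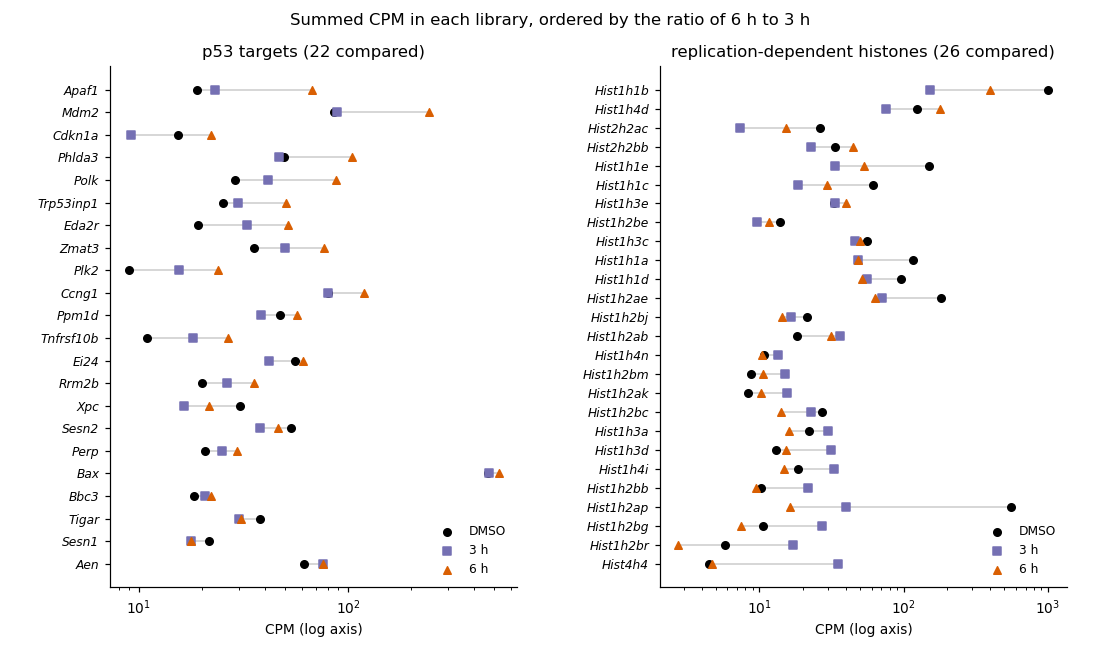
Summed CPM (log axis) of each compared p53 target (left) and replication-dependent histone gene (right) in the DMSO, 3 h and 6 h libraries, ordered by the ratio of 6 h to 3 h. For Mdm2 the 6 h point at 243 CPM stands apart from the others at 85.3 and 88.5 CPM, while the histones run from Hist1h1b, higher at 6 h than at 3 h, to Hist4h4, which was high only at 3 h.

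Recovering genes included regulators of transcription and signalling and genes of mitosis. Of the 63, 58 were back within 1.5-fold of the control at 6 h, 4 were still lower and 1, Nlrp12, was higher. Junb, a subunit of the AP-1 transcription factor, was at 42.2 CPM with DMSO, 11.5 CPM at 3 h and 30.5 CPM at 6 h. Zfp36l1, which directs the decay of AU-rich messenger RNAs, was at 71.95, 15.2 and 35.05 CPM. Socs3, the feedback inhibitor of LIF and Stat3 signalling, was at 22.2, 9.40 and 24.0 CPM. Its 6 h CPM stood near that of the control, while Junb and Zfp36l1 were part of the way back. These are shares of a library, and cells held a mean of 51646 UMIs in the control and 8435 at 6 h. The relative ratios of 6 h against 3 h were 1.19 for Junb, 1.01 for Zfp36l1 and 1.12 for Socs3.

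Ahdc1, a DNA-binding protein, and Pde1c, a cyclic nucleotide phosphodiesterase, had ratios of 1.15 and 1.08 after -0.93 and -1.25 at 3 h. Feedback inhibitors of FGF and ERK signalling were represented by Spry2, at 57.2, 19.4 and 37.2 CPM, and Spred2, at 79.1, 31.8 and 59.0 CPM. They were the 2 of 5 compared feedback genes past 1.5-fold, and the median of the 5 was 0.15. Among 56 genes of G2 and mitosis, 4 were higher, Ckap2, Anln, Mki67 and Dlgap5, and 3 lower, Cdc20, Ube2c and Cks2, with a list median of -0.01. Ckap2, a spindle protein, went from 91.3 CPM in the control to 46.5 at 3 h and 104 at 6 h, and Cdc20, an activator of the anaphase-promoting complex, from 162 to 201 and 111 CPM. These 4 and 3 calls of 56 are near the 4.51% and 3.69% of all genes that were higher and lower.

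Immediate-early genes did not share a direction. Of the 28 in the files, 8 passed the filter on low values, with a median of -0.02. At 6 h 2 of them were higher (Junb and Zfp36l1) and 2 lower (Ier2 and Sgk1), where 4.51% and 3.69% of all genes were. The other 20 were under a mean of 10 CPM in the treated libraries and include Myc, at 16.2 CPM with DMSO, 3.41 CPM at 3 h and 2.71 CPM at 6 h. Herpud1, an endoplasmic reticulum stress gene, was likewise under the filter, at 34.4, 7.13 and 3.57 CPM.

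The 19 genes that kept falling included the naive pluripotency factor Klf2. Klf2 was at 230 CPM with DMSO, 89.0 CPM at 3 h and 39.3 CPM at 6 h, a relative ratio of -1.11 at 3 h and a further -1.30 between 3 h and 6 h. Ier2, an immediate-early gene, was at 177, 70.8 and 36.6 CPM. Tgif1, a repressor in TGF-beta signalling, was at 66.7, 31.05 and 15.0 CPM. Each was lower at every later time, which the rule of the pattern fixes.

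The 2 steps were -1.06 and -1.08 for Ier2 and -0.83 and -1.15 for Tgif1. Genes named for this pattern were picked by the smaller of their 2 steps, which favours steps of like size. Hist1h2ap, an H2A histone gene, was lowest of all against control, at 556, 40.0 and 16.3 CPM, but 93.4% of the last 500 bases of its transcript recur in other genes. Over the 19 genes the median was -0.85 at 3 h and -1.64 at 6 h, against control.

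The naive pluripotency list as a whole split. Of 19 compared genes, 5 were lower at 6 h than at 3 h (Klf2, Klf4, Dppa5a, Nr0b1 and Tdh) and 1 was higher (Socs3). Among all genes compared, 3.69% were lower and 4.51% higher. The list median was -0.18. Klf4 was at 60.5, 43.0 and 25.5 CPM, a ratio of -0.88. Dppa5a, the most abundant of the list, was at 2549, 3555 and 2263 CPM, a ratio of -0.80 after a rise above control at 3 h. Klf4 thus went lower at both times and Dppa5a came back to near its control CPM.

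The core factors changed less between the times. Pou5f1 was at 137, 159 and 213 CPM with a ratio of 0.27, Nanog at 77.4, 62.4 and 50.2 CPM with -0.45, and Sox2 at 205, 80.6 and 81.1 CPM with -0.14. Most of the difference of Sox2 from control was therefore present at 3 h. Esrrb, an orphan nuclear receptor, was at 102, 131 and 193 CPM with a ratio of 0.42. None of these 4 passed 1.5-fold between 3 h and 6 h.

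Many of the genes that kept rising have only clone-based names. Their median level of 7.22 CPM in the control is largely set by the rule and by a filter that reads the treated libraries. Of the 53, 22 carry names of predicted or clone-named genes, and 58.5% are annotated as protein-coding against 97.3% of all genes compared. Il12rb2, a subunit of the interleukin-12 receptor, was at 1.79 CPM with DMSO, 13.7 CPM at 3 h and 30.3 CPM at 6 h, with steps of 2.65 and 0.94. Lpin1, a phosphatidate phosphatase of lipid synthesis, was at 6.61, 18.1 and 38.0 CPM. Cpt1c, of the carnitine palmitoyltransferase family, was at 18.2, 35.2 and 89.0 CPM, and begins 1138 bases past the end of Prmt1 on the same strand.

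Spsb1, an adaptor of ubiquitin ligases, and Ldb3, a muscle Z-disc protein, completed the named genes at 2.83, 6.62 and 15.9 CPM and at 2.27, 7.69 and 16.7 CPM. Svop, a synaptic vesicle protein, had the largest 6 h step among named genes of the pattern, 1.52, at 7.22, 11.6 and 38.8 CPM. The rule of the pattern fixes that each of these genes was higher at every later time. It also fixes that all 53 were at least 1.5-fold above control at 6 h, where their median was 1.83.

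**Figure D3:**
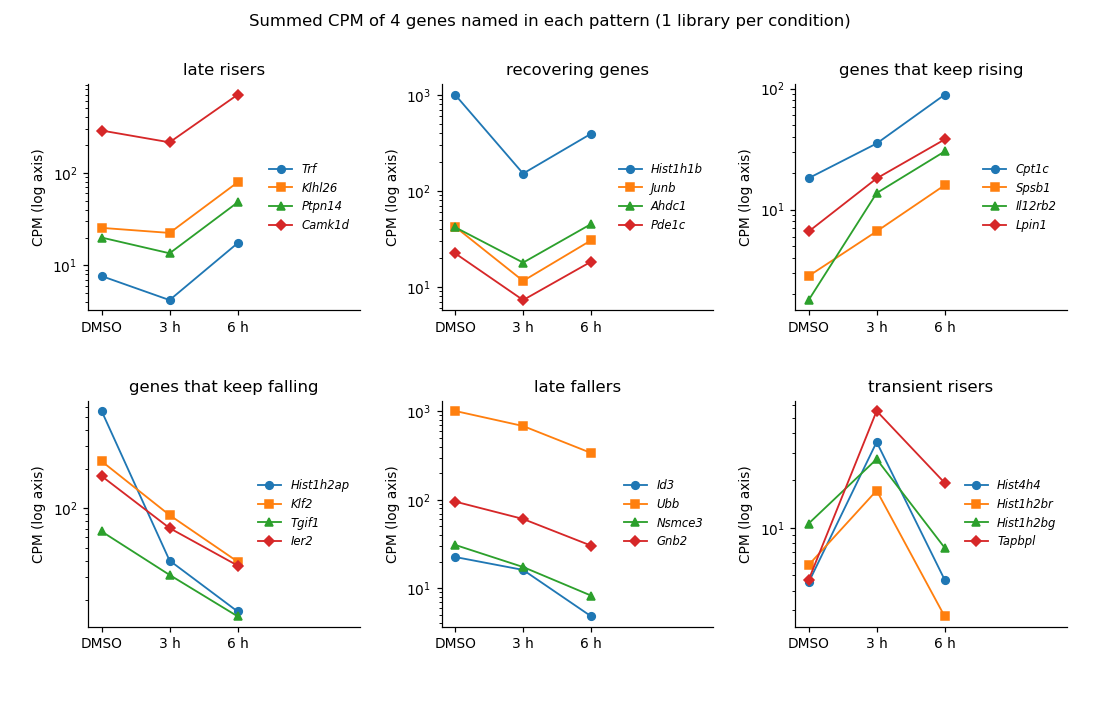
Summed CPM (log axis) in the DMSO, 3 h and 6 h libraries for 4 genes in each of the 6 patterns, those with the largest step from 3 h to 6 h among the 5 picked for the pattern, 1 line per gene and 1 library per point. Klf2 goes from 230 to 39.3 CPM among the genes that keep falling, and Hist1h1b from 1009 to 152 and back to 396 CPM among the recovering genes.

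Late fallers included abundant housekeeping transcripts and the inhibitor gene Id3. Id3, a target of BMP signalling that inhibits differentiation factors, was at 22.6 CPM with DMSO, 16.1 CPM at 3 h and 4.82 CPM at 6 h, a ratio of -1.70. Gnb2, a G protein subunit, was at 95.6, 60.8 and 30.4 CPM, and Nsmce3, of the SMC5/6 complex, at 30.96, 17.4 and 8.27 CPM. Ubb, a polyubiquitin gene, was at 1013, 684 and 339 CPM with a ratio of -1.16, and Ppia, cyclophilin A, at 2720, 2613 and 1336 CPM with -1.11. In Ubb 74.95% and in Ppia 59.8% of the transcript end recurs in other genes, so their counts are uncertain. At 6 h 110 of the 205 late fallers were at least 1.5-fold below control and 95 were within 1.5-fold.

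Ribosomal protein genes lay below the median gene at 6 h against 3 h, coming down from a level above it. Of 77 genes 72 were below and 5 above, and the list median was -0.42. By the 1.5-fold rule 13 were lower and none higher, where 3.69% and 4.51% of all genes were. Together they made up 231433 CPM of the control, 293094 CPM of the 3 h library and 255133 CPM of the 6 h library, so the other genes' CPM depends on them. The median of the list against control was 0.57 at 3 h and 0.16 at 6 h. The lowest was Rpl10, at 742 CPM at 3 h and 404 CPM at 6 h, with a ratio of -1.02, and the highest Rpl41, at 6815 and 8476 CPM, with 0.17. In Rpl41 51.3% of the transcript end recurs in other genes, so its count is uncertain. With the cells of each library ranked by UMIs and cut into 4 equal groups, the list median was -0.08 in the group with fewest UMIs and -0.39, -0.47 and -0.47 in the others.

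Genes of actin and tubulin also had a list median above control at 3 h and below the median gene in the next step, although members differed. The median of 12 was 0.54 against control at 3 h and -0.49 between 3 h and 6 h. In that second step 4 were lower and none higher, where 3.69% and 4.51% of all genes were. Actg1, cytoplasmic gamma-actin, was at 1422, 1725 and 1089 CPM with a ratio of -0.81, while Actb, beta-actin, was at 2484, 3080 and 3531 CPM with 0.05. The 2 cytoplasmic actins therefore parted at 6 h.

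Among mitochondrially encoded genes 11 of 13 lay below the median gene, with a median of -0.25 and 2 lower, mt-Cytb at -0.73 and mt-Atp6 at -0.70. In mt-Atp6 99.4% of the transcript end recurs in other genes, so its count is uncertain. The exception at the other end was mt-Nd6, at 16.9, 10.6 and 27.3 CPM and a ratio of 1.14. It is the protein-coding gene on the light strand. Proteasome subunits had a median of -0.25 (3 lower of 35) and hosts of small nucleolar RNAs -0.27 (2 lower of 14). None was higher in either list. Beside the calls of these lists and of the mitochondrially encoded genes, 3.69% of all genes were lower and 4.51% higher. Malat1, a nuclear long noncoding RNA, was at 3185, 3615 and 2355 CPM with a ratio of -0.76, and Neat1, the scaffold of paraspeckles, at 72.7, 103 and 121 CPM with 0.08.

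Transient risers were led by replication-dependent histones. These genes make most of their messenger RNA in S phase and end it in a stem-loop without a poly(A) tail, so a library primed on poly(A) sees a minor form. Hist4h4, an H4 gene, was at 4.52 CPM with DMSO, 35.03 CPM at 3 h and 4.70 CPM at 6 h, a ratio of -2.80 with an interval of -3.34 to -2.77. Hist1h2bg was at 10.7, 27.3 and 7.50 CPM, Hist1h2bb at 10.3, 21.9 and 9.56 CPM and Hist1h2br at 5.82, 17.3 and 2.76 CPM. The rule of the pattern fixes that all 4 were higher at 3 h than in the control and lower again at 6 h. At 6 h all 4 were under 10 CPM, so they passed the filter only through the 3 h library.

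Histones as a group did not move one way. Of 67 in the files 26 were compared. At 6 h 11 were lower and 4 higher, where 3.69% and 4.51% of all genes were. The median was -0.33, or 0.41 among the histones with a mean of at least 50 CPM. The 4 higher were Hist1h1b, Hist1h4d, Hist2h2ac and Hist2h2bb. Hist1h1b, a linker histone gene, was at 1009, 152 and 396 CPM, with a ratio of 1.23 after -2.47 at 3 h. Near-identical copies limit these values: of the last 500 transcript bases 57.0% recur elsewhere for Hist1h2bg, 57.4% for Hist1h2br, 24.4% for Hist4h4 and 5.96% for Hist1h1b.

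Promoter windows were matched for 23 of the 26 compared histones. The letters TATAAA on either strand occurred in 14 of them and CCAAT in 20, against 6.47% and 40.3% of the 6184 promoters matched among all genes compared. Outside the histones, Tapbpl, a regulator of peptide loading on MHC class I, was at 4.69, 55.1 and 19.3 CPM, and shares 25.7% of its transcript end with other genes. Of the 59 transient risers, 48 were within 1.5-fold of control at 6 h, 10 were still higher and 1, Hist1h2br, was lower. A start within 5 kb past the end of an expressed gene on the same strand was found for 20.3% of the 59, against 7.77% of all genes compared.

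Other pathways gave at most 2 calls each between 3 h and 6 h, where 4.51% of all genes were higher and 3.69% lower. Targets of the stress factor ATF4 had a median of -0.40 with 1 of 17 lower, Slc3a2, an amino acid transporter subunit, at -0.72 (214 to 143 CPM). In the unfolded protein response of the endoplasmic reticulum 1 of 16 was higher, the kinase gene Eif2ak3 at 0.68 (14.0 to 25.7 CPM). Glycolysis had 2 lower of 18, Gapdh at -0.64 and the glucose transporter gene Slc2a1 at -0.63. Heat shock chaperones (15 genes), the BCL2 family (8), cholesterol synthesis (19), the m6A machinery (15), speckle scaffolds and SR kinases (13) and the MYC network (5) had none past 1.5-fold. S-phase genes had 1 lower of 44, Rrm2, a ribonucleotide reductase subunit.

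In the adenosine and methyl cycle, 1 of 17 was lower, Slc29a1, the nucleoside transporter that carries adenosine analogues. It was at 39.1, 80.0 and 55.0 CPM with a ratio of -0.68. Slc29a1 begins 1365 bases past the end of Mymx on the same strand, and whether its reads come from its own transcript was not tested. Adk, the kinase of adenosine, was at 124, 92.3 and 105 CPM with 0.04. RNA polymerase II subunits had 1 lower of 13, Polr2h. Among transcription pause control genes Aff1 was higher and Cdk9, the kinase of P-TEFb, lower at -0.83 (51.2 to 31.5 CPM), the only 2 calls of 20. The shares of all genes, 4.51% higher and 3.69% lower, stand beside the calls of these lists.

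The calls of the longer lists stand beside 4.51% higher and 3.69% lower of all genes. Oxidative phosphorylation, mitochondrial ribosomal proteins and zinc finger proteins had a larger share lower and a smaller share higher than that. Nuclear genes of oxidative phosphorylation had 2 higher and 6 lower of 80, mitochondrial ribosomal proteins 2 and 6 of 78, and ribosome biogenesis 2 and 1 of 30. Among 100 compared genes of numbered zinc finger proteins, mostly sequence-specific repressors, 2 were higher and 8 lower between the times. Against the control, which both times share, 27 of these 100 were at least 1.5-fold lower at 3 h, where 9.05% of all genes were, and 39 at 6 h, where 11.2% were. The list medians were -0.25 and -0.41.

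**Figure D4:**
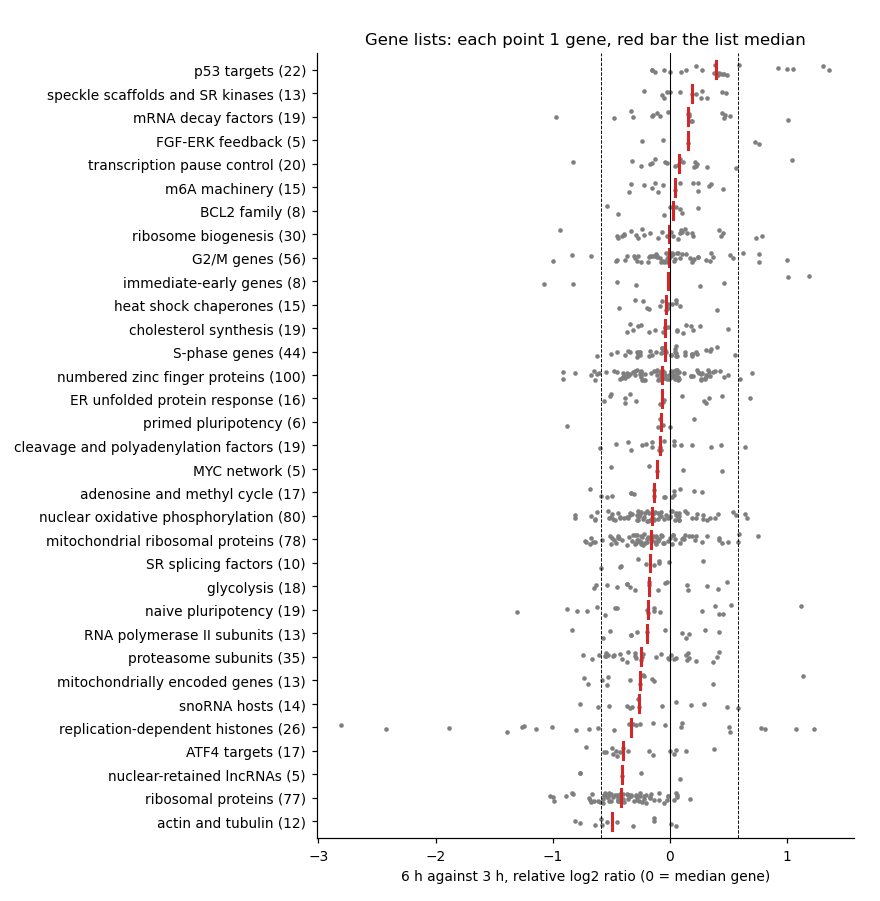
Relative log2 ratio of 6 h against 3 h for each compared gene (grey points) of the lists with at least 5 genes, with the list median in red, the number of genes in brackets, 0 at the median gene and dashed lines at 1.5-fold. The p53 targets have the highest median, 0.40, and actin and tubulin the lowest, -0.49, while most list medians lie well inside 1.5-fold.

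Genes higher and lower at 6 h differed in size and structure, which the fold rule does not use. By the gene models of GENCODE M21 the late risers spanned a median of 67.7 kb and the recovering genes 58.3 kb, against 27.4 kb for all genes compared. The late fallers spanned 8.69 kb, the transient risers 6.31 kb and the genes that kept falling 5.80 kb. The genes that kept rising, at a median of 29.8 kb, were close to all genes compared. Genes over 100 kb made up 34.8% of late risers, 17.0% of genes that kept rising, 1.95% of late fallers and 14.1% of all.

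Across all genes the same order held. Genes of up to 5 kb had a median of -0.15 for 6 h against 3 h, and genes over 200 kb a median of 0.20. At 3 h the order was the opposite, with 0.26 for genes of up to 5 kb and -0.25 for genes over 200 kb against control. At 6 h against control the medians were 0.11 and -0.04, so the ends lay closer together. Of genes over 200 kb 12.4% were at least 1.5-fold higher and 0.541% lower between the times, and of genes of up to 5 kb 3.49% were higher and 10.98% lower.

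The order was also present in genes whose transcript end shares no 31-base stretch with another gene, from -0.12 to 0.20, and in genes under 100 CPM at 3 h, from -0.13 to 0.20. In barcodes with few UMIs, which hold free RNA, it ran from -0.39 to 0.36. The sources used here do not give whether reads in introns were counted, and the part of such reads was not tested. Level moved with the ratio too: the 144 genes over 1000 CPM at 3 h had a median of -0.36, with 19.4% lower and none higher. Their median at 3 h against control was 0.52. The 3 h level is also the denominator of the ratio, which favours lower ratios in genes picked as high at 3 h. The relation to level is therefore only a description. Sequence shared with other genes was unevenly spread, with over 10% of the transcript end shared in 14 of the 26 genes at least 2-fold lower (53.8%) and in 9.76% of all genes.

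**Figure D5:**
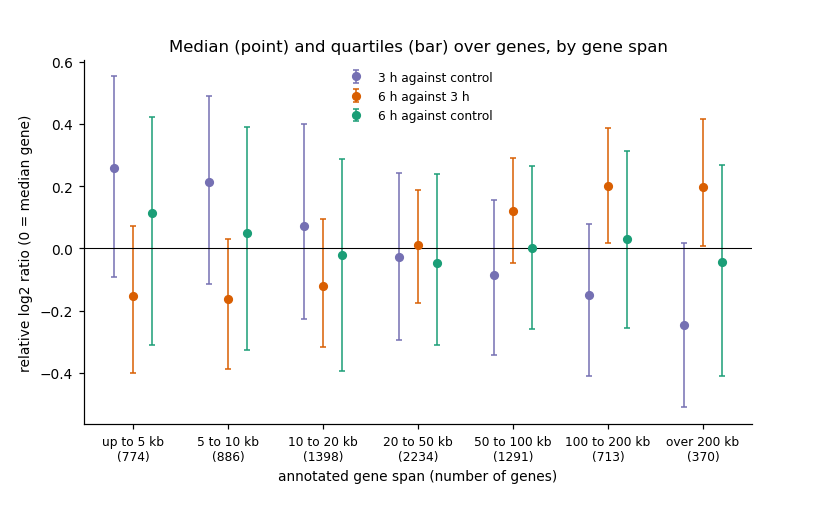
Median (point) and quartiles (bar) of the relative log2 ratio over genes in 7 bins of annotated gene span, for 3 h against control, 6 h against 3 h and 6 h against control, with the number of genes under each bin. The 3 h medians go down from 0.26 to -0.25 with span, the medians of 6 h against 3 h go up from -0.15 to 0.20, and the 2 comparisons share the 3 h library.

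In UMIs per cell the 6 h library was lower than the 3 h library for most genes. Only 765 of the 7666 genes (9.98%) had more UMIs per cell at 6 h, and all 346 genes at least 1.5-fold higher relative to the median gene were among them, since that rule exceeds the shift of the median gene. The 4 groups of cells ranked by UMIs gave the late risers medians of 0.71, 0.74, 0.84 and 0.87 from fewest to most UMIs. The genes that kept falling gave -0.71, -0.66, -0.71 and -1.01, and the p53 targets 0.29, 0.43, 0.40 and 0.41. The late risers and the genes that kept falling were chosen on the sum of these same cells, which largely fixes their sign in the groups, so these medians are only a description.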

How the data were processed

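RNA was measured by 10x Genomics single-cell 3' v3 barcoding in 3 libraries of polyadenylated RNA, 1 for each condition. The deposited values are raw counts of UMIs for every gene in every barcode, which the authors made with Cell Ranger 7.1.0 on mm10, per the submitters' processing notes, and without a cell filter. The annotation and the counting of intronic reads are not given in the sources used here. The members and lists were chosen with earlier results of these data known.

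UMI counts of all cells called in a library were added up and scaled to CPM. Log2 ratios were taken of CPM + 1, and the median ratio over the 7666 compared genes was subtracted. Doublets were kept. The cell minimum is a divisor of 10 below the 99th percentile of the top 3000 barcodes. Intervals are exact conditional binomial intervals at 95% and cover counting error only. A count of 0 allows a level of 0.100 CPM in the 3 h library and of 0.122 CPM in the 6 h library, taken as 3 counts. The log2 ratios, intervals and 1.5-fold rule for 6 h against 3 h were tested on simulated counts. The patterns, which also need the control, were not.

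The named genes were the 12 highest and 12 lowest ratios, 5 per pattern, the 2 at either end of each list and some fixed ones, without predicted genes. One gene of the rule is not reported here. Other genes complete counts of 5 or fewer or were chosen after their values were seen. Gene spans came from GENCODE M21, promoters from RefSeq, matched by symbol and synonym. TMM factors came from edgeR 4.0.16 in R 4.3.3, and all else from Python 3.11.15 with scipy 1.17.1, pandas 2.3.3 and numpy 2.4.6.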

Additional observations from a re-analysis of the deposited data

Results flagged for a closer look

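Nlrp12 and Hist1h2br were the only 2 of the 7666 genes that stood on opposite sides of the control at the 2 times, at least 1.5-fold in each case. Nlrp12, a gene of the NLR family, was lower than control at 3 h (-0.82) and higher at 6 h (1.04), at 11.3, 4.88 and 22.8 CPM in the control, 3 h and 6 h libraries. Hist1h2br, an H2B histone gene, was higher at 3 h (1.67) and lower at 6 h (-0.77), at 5.82, 17.3 and 2.76 CPM. Nlrp12 passed the filter of a mean of 10 CPM only through the 6 h library, and Hist1h2br only through the 3 h library. Both comparisons use the same control library, each condition is 1 library, and the difference between the times was not tested.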

How the results depend on the processing

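Of 172 named genes that were compared, 94 were past 1.5-fold, and 62 of these were past it in each of the 15 alternative settings in which they passed the filter. The scalings moved the median gene by less than 1.5-fold and shift genes nearly alike, so a sign past 1.5-fold could not turn under them and is no measure of stability. Reversed were the median of the p53 targets by UMIs per cell (-0.041) and that of the histones with a mean of at least 50 CPM (0.41). In the order 2-fold higher, 2-fold lower, 1.5-fold higher and 1.5-fold lower, the counts of 82, 26, 346 and 283 genes became 142, 12, 688 and 116 by CPM alone, 12, 330, 74 and 2441 by UMIs per cell, 16, 8, 100 and 117 with a mean of at least 50 CPM, and 286, 51, 1376 and 463 without a filter. Genes 1.5-fold lower numbered 469 with median-of-ratios and 459 with TMM factors. By CPM alone there were 396 late risers, 239 recovering genes, 79 late fallers and 16 transient risers. By UMIs per cell there were 0 late risers, 2425 genes that kept falling, 0 that kept rising, 12 late fallers and 4 transient risers. That scale gave 74 recovering genes, of which only 9 were among the 63 reported. With a mean of at least 50 CPM the late risers, recovering genes, genes that kept falling, genes that kept rising, late fallers and transient risers numbered 65, 26, 4, 9, 94 and 19. Without a filter there were 941 late risers, 306 recovering genes, 73 that kept falling, 129 that kept rising and 103 transient risers. Median-of-ratios factors gave 32 genes that kept falling, 334 late fallers and 103 transient risers, and TMM factors 41, 329 and 89. Cells from 4000 to 16000 UMIs, of which 38 were control cells, gave 153 late risers, 115 recovering genes, 115 late fallers and 165 transient risers. With these cells 22 genes kept falling, 6 of them in the reported set, and 76 kept rising, 26 of them in the reported set. Causes other than these shifts were not tested. The analyses by depth of cells, by shared stretches and of gene spans in subsets were chosen after seeing the data. No paired analysis was possible because each condition has 1 library. For the same reason no library could be left out.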
